A study of Mus musculus with 6 samples.

Results

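The 10 immediate early genes Egr1, Egr2, Egr3, Klf4, Klf6, Ier2, Ier3, Zfp36, Nr4a1 and Dusp1 were followed by their symbols in a count table of 26971 features from the injured mouse kidney. Each symbol stood on 1 feature. Cortex RNA was taken 1 day after surgery from male C57BL/6 mice, and all 6 libraries carried ischaemia-reperfusion injury (IRI), in which blood flow is stopped and then restored. The 3 libraries titled CLK_IRI had IRI alone, and the 3 titled Cong_IRI had IRI with IVCC, the arm with renal congestion. The labels expand neither CLK nor IVCC, and give no age. They do not say whether each library is from its own animal, and the p-values reflect no more than the spread among these libraries, which may be technical. No uninjured kidney was analysed here, so every difference is between 2 injured states.

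Immediate early genes are transcribed within minutes of a stimulus from factors already in the cell, without new protein synthesis. Growth factor and stress signals reach them through the ERK and p38 kinases, which act on serum response factor (SRF) at CArG boxes and on CREB at cAMP response elements. Their mRNAs are short-lived, and several of their products end the response: ZFP36 (tristetraprolin) speeds decay of mRNAs with AU-rich elements, and DUSP1 removes phosphate from p38, JNK and ERK. In kidney they are known as early markers of ischaemic injury, and EGR1 and KLF6 have been studied in injured tubules.

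The promoters of 5 genes are printed, from a window of 250 bases before to 50 after the start. Of these, 4 hold control elements that the family is known for, and that of Klf6 holds none of the elements marked here. Sequences are from RefSeq on GRCm38.p6, read 5′ to 3′ on the strand of the gene. The table held promoters of 7 of the 10 genes, and Egr1, Egr3 and Ier2 were not among them. Capitals mark CArG boxes, the EGR site (GCGTGGGCG or GCGGGGGCG) and the CREB core (TGACG), each searched on both strands.
Egr2 chr10:67537619-67537918 (+): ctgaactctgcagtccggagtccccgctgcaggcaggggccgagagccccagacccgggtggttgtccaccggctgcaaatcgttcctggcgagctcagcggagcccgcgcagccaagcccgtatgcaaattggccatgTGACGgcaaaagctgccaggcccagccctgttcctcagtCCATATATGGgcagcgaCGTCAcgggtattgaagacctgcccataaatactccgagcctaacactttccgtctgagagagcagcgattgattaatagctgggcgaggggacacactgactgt
Zfp36 chr7:28379179-28379478 (-): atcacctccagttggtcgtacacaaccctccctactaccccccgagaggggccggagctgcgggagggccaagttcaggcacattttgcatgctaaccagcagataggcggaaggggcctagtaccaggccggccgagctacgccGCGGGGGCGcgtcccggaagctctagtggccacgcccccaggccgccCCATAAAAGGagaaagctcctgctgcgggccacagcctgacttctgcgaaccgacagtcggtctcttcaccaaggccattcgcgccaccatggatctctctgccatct
Nr4a1 chr15:101266596-101266895 (+): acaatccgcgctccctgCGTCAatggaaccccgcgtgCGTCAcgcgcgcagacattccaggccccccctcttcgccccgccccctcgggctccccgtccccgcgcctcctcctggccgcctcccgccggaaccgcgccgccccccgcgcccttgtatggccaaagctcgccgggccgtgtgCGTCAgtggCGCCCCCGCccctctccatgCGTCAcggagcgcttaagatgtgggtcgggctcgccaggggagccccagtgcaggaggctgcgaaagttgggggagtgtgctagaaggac
Dusp1 chr17:26508423-26508722 (-): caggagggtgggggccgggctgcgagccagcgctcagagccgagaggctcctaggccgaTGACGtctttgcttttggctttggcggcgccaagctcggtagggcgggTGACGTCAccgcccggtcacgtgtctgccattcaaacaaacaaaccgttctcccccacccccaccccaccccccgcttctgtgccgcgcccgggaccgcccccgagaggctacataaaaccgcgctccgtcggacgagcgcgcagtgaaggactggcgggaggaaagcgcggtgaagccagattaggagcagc
Klf6 chr13:5861239-5861538 (+): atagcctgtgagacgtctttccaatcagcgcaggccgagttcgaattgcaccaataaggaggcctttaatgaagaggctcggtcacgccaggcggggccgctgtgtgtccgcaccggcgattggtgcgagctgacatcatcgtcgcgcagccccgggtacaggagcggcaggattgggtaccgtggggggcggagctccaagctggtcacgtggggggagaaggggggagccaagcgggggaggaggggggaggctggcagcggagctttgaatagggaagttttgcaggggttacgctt
A CArG box stood in windows of 2 of the 7 genes, Egr2 and Zfp36, against 1.63% of 32851 promoter windows of the same length. It began at position -72 from this start of Egr2 and at -58 from that of Zfp36. The EGR site stood in 3 of the 7 genes (Klf4, Zfp36 and Nr4a1), against 3.47% of windows. The core TGACG stood in 4 of the 7, against 20.8%, and the full element TGACGTCA in Dusp1 alone, against 1.79%. The full element overlaps 2 cores. Klf6 and Ier3 held none of these 4 motifs in their windows, though CCAAT, also searched, stood there 4 and 2 times. CCAAT stood in 3 of the 7 genes, against 37.4% of windows, and GGAATG (the TEAD site) in 2 of the 7, against 14.7%. Neither TGANTCA with C or G in the middle (the AP-1 site) nor TATAAA stood in any of the 7 genes, against 5.2% and 13.6% of windows. A match is a run of letters, not a site shown to be bound, and windows of 1 gene can overlap. The 7 genes had 11 windows, and Egr2 was the only gene with more than 1. A gene was counted if any of its windows held the motif, whereas the shares are per window. The Egr2 window at chr10:67535249-67535548 held no CArG box.

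The 3' UTRs are described because ZFP36, 1 of the 10, acts on such sequences. The pentamer ATTTA, the core of AU-rich elements, stood in 9 of the 10 genes and in 66.4% of 20742 genes with a 3' UTR of at least 50 bases. Its density had a median of 2.57 per kilobase over the 10 genes and 1.25 over all genes, and 8 of the 10 lay above that median. Ier3 held 5 copies in 613 bases, Dusp1 4 in 690 and Nr4a1 3 in 543, whereas Ier2 held 0 in 755. The nonamer TTATTTATT, a strong binding sequence of ZFP36, stood in 2 of the 10 genes, Zfp36 and Dusp1, against 7.75% of all genes. These sites are printed with 10 bases on each side and the nonamer in capitals.
Zfp36 site at base 589 of the 3' UTR: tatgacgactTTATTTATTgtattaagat
Dusp1 site at base 103 of the 3' UTR: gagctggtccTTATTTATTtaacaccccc
Dusp1 site at base 392 of the 3' UTR: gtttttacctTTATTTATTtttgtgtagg

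Total counts ranged from 10865860 to 14350425 per library, and the 10 genes together took 0.0153% to 0.0358% of them. Levels are CPM, counts scaled to library size and by edgeR's TMM factors. All 9 listed proximal tubule markers were detected in every library. Replicate 1 of both groups stood apart from the other libraries in those markers, at 3722 and 3155 summed CPM against 8370 to 9235 in the other 4. The 8 tubular injury genes summed to 48215 and 65443 CPM in replicate 1 of IRI and congested kidney, against 6507 to 18449 in the others. Most of each sum was Spp1, at 40269 and 59308 CPM in replicate 1 of IRI and congested kidney. Havcr1 and Lcn2 went the other way between these 2 libraries. Havcr1 held 2479 CPM in the IRI library and 2122 in the congested one, and Lcn2 1210 and 856. In bulk tissue, fewer cells of a type and less RNA per cell cannot be told apart.

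None of the 9 immediate early genes that could be tested passed the threshold between congested and IRI kidney, although 7 of the 9 had a fitted level above that of IRI. Here a log2 ratio is the fitted log2 fold change, congested over IRI. Fitted differences ran from 1.84-fold higher for Klf6 to 1.30-fold lower for Ier3. With each library adjusted for transcript length and base composition, the log2 ratios of the 9 genes ran from -0.03 to 0.71, against -0.38 to 0.88 without. Their median log2 fold change was 0.31, against -0.00 over all 14274 genes tested. A difference above 0 was found for 49.6% of all genes. edgeR's quasi-likelihood test called 0 of the 9 genes and 0% of all genes at an adjusted p under 0.05, and 0 of the 9 had an unadjusted p under 0.05, against 2% of all genes. DESeq2 and limma-voom also called 0 of the 9. The median was 0.77 leaving out IRI library 1, 0.13 leaving out IRI library 3 and 0.03 leaving out congested library 1, so its size rests on these libraries. The count above 0 was 8 of 9 leaving out IRI library 1. It was 5 of 9 leaving out IRI library 3, and 5 of 9 leaving out congested library 1. Most of the 9 varied together over the libraries, so they are not separate observations.

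**Figure D1:**
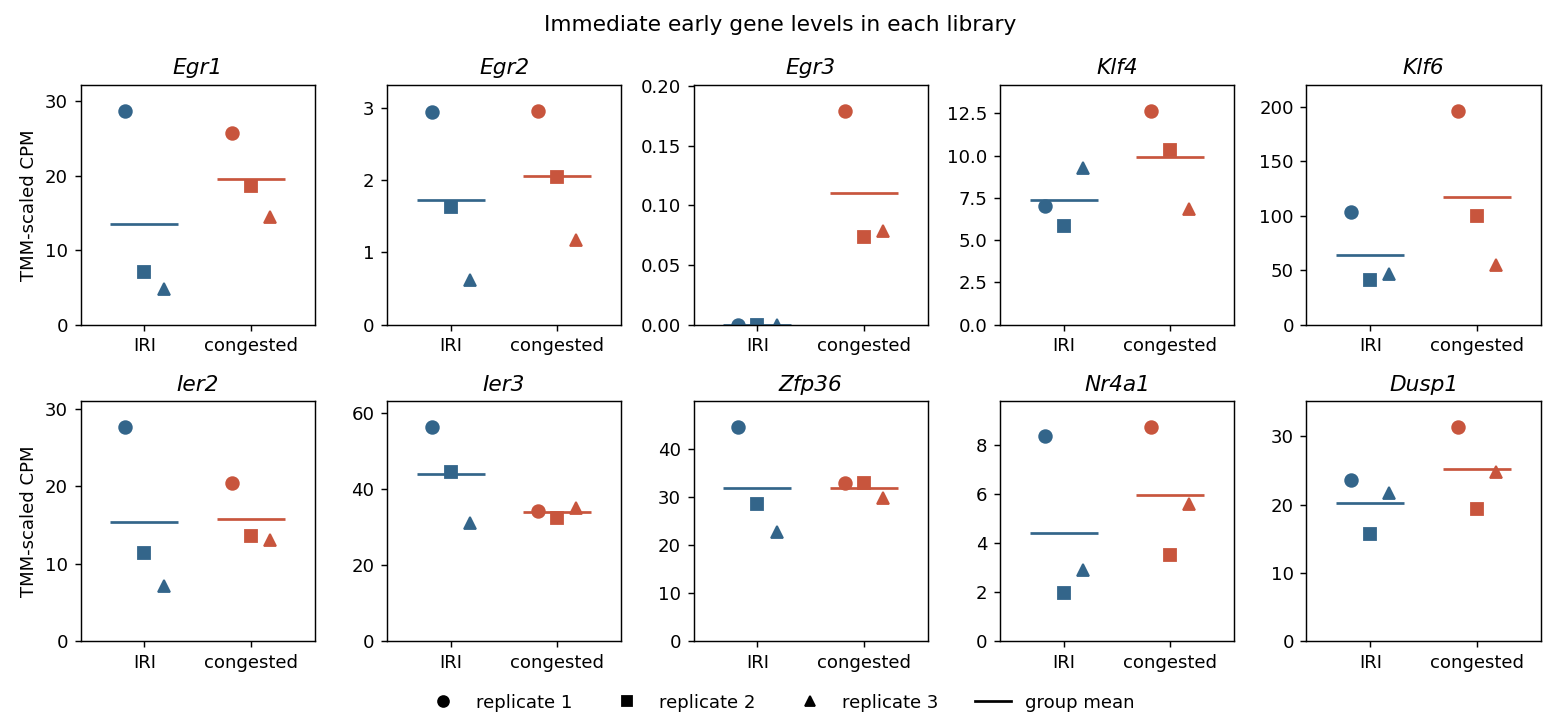
Level of each of the 10 genes in every library, in TMM-scaled CPM on linear axes that start at 0, with circles, squares and triangles for replicates 1, 2 and 3 and a line at each group mean (n = 3). Replicate 1 is the highest of its group for most genes, and the groups overlap for all 9 genes tested.

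Among the EGR zinc-finger transcription factors, Egr1 had the widest spread of the 9 tested genes, a 5.91-fold range over the 6 libraries. Egr1 (ENSMUSG00000038418.7, 2 exons, protein-coding) lay at 28.7, 7.09 and 4.86 CPM across IRI replicates 1 to 3. The congested replicates 1, 2 and 3 held 25.8, 18.6 and 14.4 CPM. All 3 congested libraries were thus above IRI replicates 2 and 3 and below IRI replicate 1. The group means were 13.6 ± 13.2 CPM (SD, n = 3) for IRI against 19.6 ± 5.72 CPM (SD, n = 3) with congestion, a log2 ratio of 0.53 ± 0.63 (SE) (edgeR adjusted p = 0.933). It was 1.72 leaving out IRI library 1, 0.13 leaving out IRI library 3, 0.22 leaving out IRI library 2 and 0.27 leaving out congested library 1.

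Egr2, which is best known for control of myelination and also acts in T cells and macrophages, was low in all libraries. It lies at chr10:67535475-67542188 on the plus strand of GRCm38. IRI replicates 1, 2 and 3 held 2.94, 1.62 and 0.618 CPM, or 37, 19 and 7 counts. Congested replicates 1, 2 and 3 held 2.96, 2.05 and 1.18 CPM. Replicate 1 of the 2 groups differed by less than the spread within either, and the groups overlapped. The log2 ratio was 0.24 ± 0.60 (SE) (edgeR adjusted p = 0.956), and it was -0.15 leaving out IRI library 3, -0.11 leaving out congested library 1 and 0.87 leaving out IRI library 1. Egr3 (chr14:70077203-70082614, plus strand), a close relative of EGR1, was at the limit of detection. It had 0 counts in all 3 IRI libraries, which allows up to 0.239, 0.256 and 0.265 CPM at 3 counts per library. The congested replicates 1, 2 and 3 had 2, 1 and 1 counts. Egr3 was too low to enter the edgeR fit, and an exact two-sided permutation test over its CPM gave p = 0.1, the smallest p that 3 against 3 libraries allow. The levels of both groups lie under 3 counts per library, so no fold is given.

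Klf6 had the largest fitted difference of the 9 tested genes without the replicate block, whereas Egr1 had the larger one with the block (0.89 against 0.82), with limma-voom (0.90 against 0.82) and leaving out IRI library 1 (1.72 against 1.42). It encodes a Krüppel-like zinc-finger factor induced early in injured epithelium and lies at chr13:5861482-5870394 on the plus strand. Klf6 held 103.3, 40.9 and 46.7 CPM across IRI replicates 1 to 3. It held 196.6, 99.5 and 54.9 CPM across congested replicates 1 to 3. The congested library was the higher of each equal-number pair, yet the groups overlapped because IRI replicate 1 stood above congested replicates 2 and 3. The mean was 63.6 ± 34.5 CPM (SD, n = 3) for IRI against 117.0 ± 72.5 CPM (SD, n = 3) with congestion, a log2 ratio of 0.88 ± 0.53 (SE) (edgeR adjusted p = 0.933). It was 1.42 leaving out IRI library 1 and 0.27 leaving out congested library 1.

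Klf4, a Krüppel-like factor of epithelial and endothelial cells and of monocyte differentiation, varied over a 2.18-fold range of libraries, against 4.81-fold for Klf6. It lies at chr4:55527143-55532466 on the minus strand. Its levels were 7.0, 5.81 and 9.27 CPM across IRI replicates 1 to 3. In congested replicates 1, 2 and 3 they were 12.7, 10.3 and 6.83 CPM. Congested replicates 1 and 2 were the highest of all 6 libraries, while congested replicate 3 lay below IRI replicates 1 and 3. The log2 ratio was 0.43 ± 0.32 (SE) (edgeR adjusted p = 0.933), and it was 0.22 leaving out congested library 1 and 0.64 leaving out IRI library 3.

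Ier2 and Ier3, 2 small proteins that share a name and not a family, had estimates of different size. Ier2 (chr8:84661331-84662852, minus strand, 1 exon), a nuclear protein of the growth factor response, held 27.6, 11.4 and 7.06 CPM across IRI replicates 1 to 3. Congested replicates 1, 2 and 3 held 20.5, 13.5 and 13.1 CPM. The congested libraries all lay inside the range of the IRI libraries. The log2 ratio of Ier2 was 0.03 ± 0.49 (SE) (edgeR adjusted p = 0.992). It was -0.14 leaving out IRI library 2, -0.31 leaving out IRI library 3, -0.21 leaving out congested library 1 and 0.77 leaving out IRI library 1.

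Ier3, an NF-κB and p53 target that modulates survival signalling, was the one gene with a negative estimate larger than its standard error. It lies at chr17:35821684-35822923 on the plus strand. It held 56.2, 44.3 and 31.1 CPM across IRI replicates 1 to 3. Congested replicates 1, 2 and 3 held 34.1, 32.4 and 34.9 CPM. IRI replicates 1 and 2 stood above every congested library and IRI replicate 3 below. The group means were 43.8 ± 12.5 CPM (SD, n = 3) and 33.8 ± 1.31 CPM (SD, n = 3), and the log2 ratio was -0.38 ± 0.24 (SE) (edgeR adjusted p = 0.933). It was -0.03 once each library was adjusted for transcript length and base composition (GC), and it was -0.15 leaving out IRI library 1 and -0.57 leaving out IRI library 3.

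Of the 2 genes whose products limit the response, Zfp36 had nearly equal group means, and Dusp1 had a log2 ratio at the median of the 9 tested members. Zfp36 (chr7:28376784-28380253, minus strand) held 44.6, 28.7 and 22.8 CPM across IRI replicates 1 to 3. In congested replicates 1, 2 and 3 it held 33.0, 33.0 and 29.9 CPM. Its means were nearly equal, at 32.03 ± 11.3 CPM (SD, n = 3) and 31.98 ± 1.80 CPM (SD, n = 3). The log2 ratio was -0.00 ± 0.27 (SE) (edgeR adjusted p = 0.998); its sign changed between scalings, being 0.13 with total counts, so no direction is given. Dusp1 (chr17:26505590-26562128, minus strand) held 23.6, 15.6 and 21.6 CPM across IRI replicates 1 to 3, and 31.3, 19.3 and 24.8 CPM across congested replicates 1 to 3. The congested library of Dusp1 was the higher of each pair, and the groups overlapped. The log2 ratio was 0.31 ± 0.26 (SE) (edgeR adjusted p = 0.933), and it was 0.12 leaving out congested library 1, 0.15 leaving out IRI library 2 and 0.47 leaving out congested library 2.

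Nr4a1 encodes the orphan nuclear receptor Nur77, which is induced by many signals in epithelium and myeloid cells. It lies at chr15:101254269-101274795 on the plus strand. It held 8.35, 1.96 and 2.91 CPM across IRI replicates 1 to 3. Congested replicates 1, 2 and 3 held 8.71, 3.51 and 5.57 CPM. In both groups replicate 1 was the highest and replicate 2 the lowest, and the congested library was the higher of each pair. The log2 ratio was 0.42 ± 0.59 (SE) (edgeR adjusted p = 0.934), and it was 1.28 leaving out IRI library 1, 0.07 leaving out IRI library 2, 0.20 leaving out IRI library 3 and 0.03 leaving out congested library 1.

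**Figure D2:**
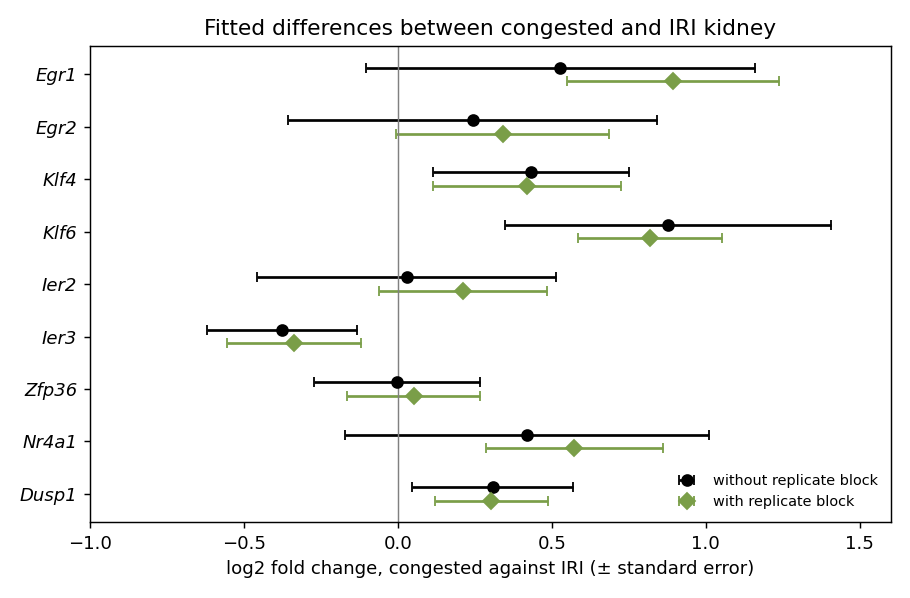
Fitted log2 fold change of the 9 tested genes, congested against IRI kidney, with bars of 1 standard error, from edgeR without (circles) and with (diamonds) the replicate number as a block. Klf6 lies farthest to the right without the block at 0.88 and Ier3 lies farthest to the left at -0.38, and no gene passed the threshold in either fit.

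Libraries of equal replicate number were also compared as pairs. No label states such a pairing, and it was chosen because equal numbers deviated together in these same counts. Beyond number 1 it is uncertain: IRI 2 correlated at 0.342 with congested 2 and at 0.401 with congested 3. The p-values of this fit and the counts over pairs are therefore descriptive and no independent paired test. With the number as a block, edgeR again called 0 of the 9 genes and 0% of all genes, and 8 of the 9 had a fitted difference above 0, against 50.7% of all genes. In that fit Egr1 had a log2 ratio of 0.89 ± 0.34 (SE) and Klf6 of 0.82 ± 0.23 (SE). These were the 2 of 9 genes with an unadjusted p under 0.05 (0.0312 and 0.00776, both at an edgeR adjusted p of 0.577), against 7.06% of all genes in either direction and 4.08% with congested kidney higher. Within numbers the congested library was higher for 5 of 9 genes in replicate 1, for 8 of 9 in replicate 2 and for 8 of 9 in replicate 3, against 50.3%, 50.5% and 49.7% of all genes. Egr1 differed by -0.16, 1.37 and 1.54 on the log2 scale in replicates 1, 2 and 3. The Egr1 difference was above 0 in replicates 2 and 3 and slightly below it in replicate 1. Klf6 differed by 0.93, 1.28 and 0.23, and Klf4 by 0.84, 0.81 and -0.43, so replicate 3 gave both of these their lowest value. Nr4a1 differed by 0.06, 0.79 and 0.90, Egr2 by 0.01, 0.31 and 0.78, and Dusp1 by 0.40, 0.30 and 0.20. Ier2 and Zfp36 were lower in congested replicate 1, by -0.43 and -0.43, and higher in the other pairs, by 0.24 and 0.88 for Ier2 and by 0.20 and 0.39 for Zfp36. Ier3 differed by -0.72, -0.45 and 0.17. In all, 4 of 9 genes (Egr2, Klf6, Nr4a1 and Dusp1) were higher in all 3 pairs, against 13.1% of all genes.

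**Figure D3:**
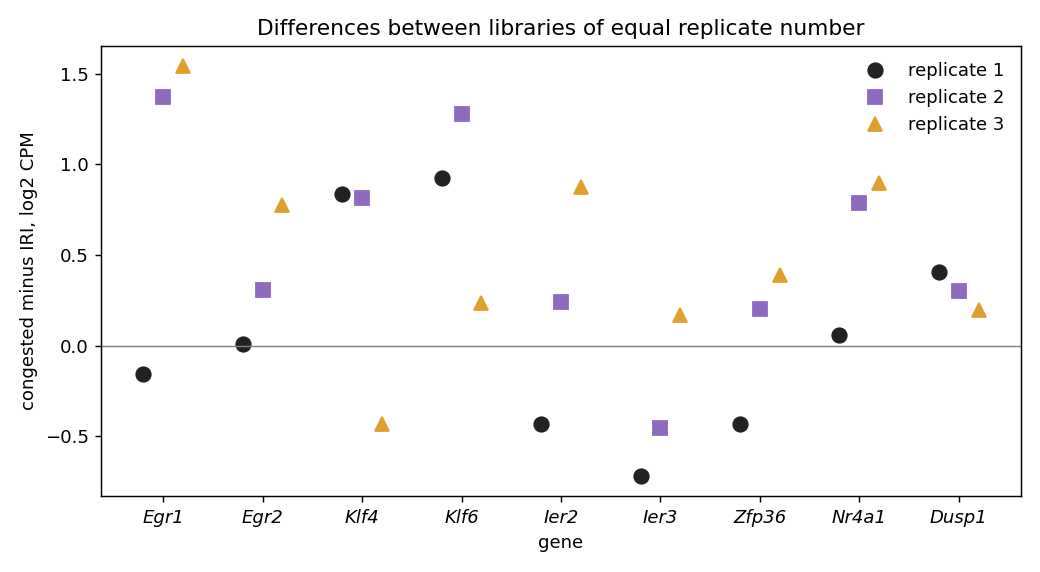
Difference in log2 CPM between the congested and the IRI library of the same replicate number, for each of the 9 tested genes, with circles, squares and triangles for replicates 1, 2 and 3. Egr1 lies near 0 in replicate 1 (-0.16) and at 1.37 and 1.54 in replicates 2 and 3, while Ier3 is lowest in replicate 1 at -0.72.

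With all 6 libraries, edgeR made calls among the 9 genes between replicate numbers. The number was made a term because same-numbered libraries deviated together in these same counts. Its p-values, here and below, therefore describe that deviation and are no independent test of it. They cannot be weighed against those of the group test. In a fit with group and number, edgeR called Klf6 (adjusted p = 0.0308) and Nr4a1 (adjusted p = 0.0451) between the numbers, 2 of 9 genes against 8.01% of all genes. Egr1, Ier2 and Egr2 followed at edgeR adjusted p of 0.0669, 0.0802 and 0.091, whereas Klf4 was at 0.851 and Ier3 at 0.586. Both calls were lost with total counts as the scaling and leaving out IRI library 1, that of Nr4a1 with limma-voom and leaving out IRI library 2, and that of Klf6 leaving out congested library 1. DESeq2's likelihood ratio test called 4 of the 9, Egr1 and Ier2 in addition, against 13.1% of all genes. Of the 9 genes, 7 were highest in replicate 1 of both groups, against 27.7% of all genes. Zfp36 is counted there, although its congested replicates 1 and 2 were nearly equal, at 33.025 and 33.02 CPM.

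The distance of replicate 1 from the other 2 libraries was not the same in the groups. In IRI, replicate 1 of Egr1 stood 2.26 log2 units above the mean of replicates 2 and 3, and in congested kidney 0.65. The values were 1.6 and 0.61 for Ier2, 0.80 and 0.07 for Zfp36, 0.60 and 0.02 for Ier3, 1.39 and 0.86 for Egr2 and 1.73 and 0.95 for Nr4a1. For these 6 genes replicate 1 stood farther out in IRI. It stood about as far out or farther in congested kidney for Klf6 (1.24 and 1.41), Dusp1 (0.36 and 0.51) and Klf4 (-0.07 and 0.58). The difference between the groups in this distance was not tested, since the 6 libraries leave no replicate of it. The coefficient of variation of CPM was lower in congested than in IRI kidney for the same 6 of 9 genes, and for 66.6% of all genes. In IRI and congested kidney it was 0.286 and 0.0387 for Ier3, 0.353 and 0.0564 for Zfp36, and 0.972 and 0.292 for Egr1.

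**Figure D4:**
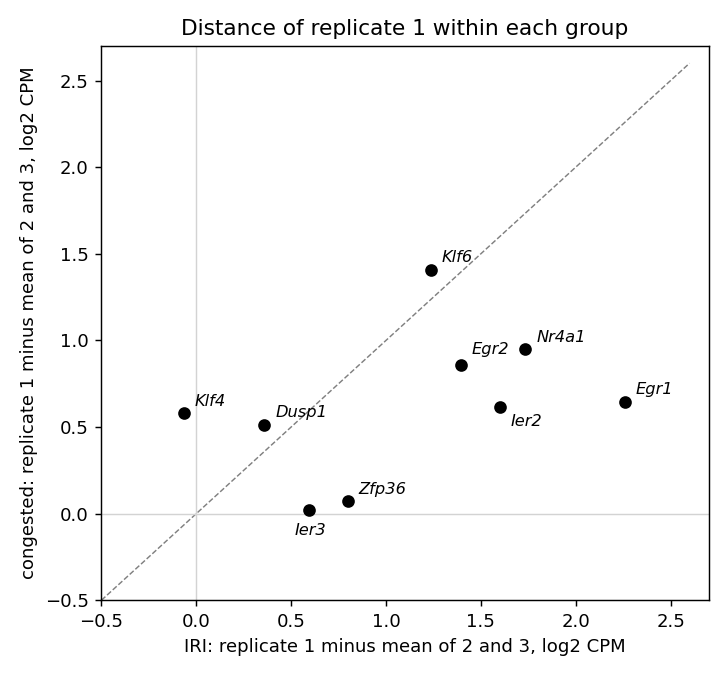
Distance of replicate 1 from the mean of replicates 2 and 3 in log2 CPM, in IRI (horizontal axis) and congested kidney (vertical axis), with 1 point per tested gene and a dashed line where both are equal. Egr1 lies far below the line, at 2.26 and 0.65, and Klf6 slightly above it, at 1.24 and 1.41.

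Levels of different genes are compared per kilobase of the longest annotated transcript, in CPM per kilobase averaged over the 6 libraries. In that order stood Ier3 (34.3), Klf6 (21.4), Zfp36 (11.5), Ier2 (10.2), Dusp1 (9.82), Egr1 (3.70), Klf4 (2.85), Nr4a1 (2.02), Egr2 (0.639) and Egr3 (0.014). The ranges over libraries overlapped between neighbours in this order except between Dusp1 and Egr1 and between Egr2 and Egr3. The range was 27.5 to 49.7 for Ier3 and 9.68 to 46.5 for Klf6, and Ier3 was the higher in 5 of 6 libraries. Every library held more Ier3 and more Klf6 per kilobase than any of the 3 EGR genes.

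Most of the genes varied together over the 6 libraries. Correlation of log2 CPM with the mean profile of the other tested members was 0.95 for Egr1, 0.93 for Ier2, 0.87 for Klf6, 0.86 for Nr4a1, 0.84 for Egr2 and 0.81 for Zfp36. It was 0.58 for Dusp1, 0.25 for Ier3 and 0.24 for Klf4. Among pairs, Ier2 and Zfp36 were closest (r = 0.96), and Klf4 and Ier3 farthest apart (r = -0.62). These values describe 6 libraries that share 2 groups and the split of replicate 1. Of 10968 other genes averaging 5 CPM or more, the 8 whose profile was most like the mean profile of the 9 were Tnfaip1, Commd7, Tmem268, Btg2, Xdh, Pwp1, Junb and Rela, with r from 0.994 (Tnfaip1) to 0.986 (Rela). Btg2 held 59.3, 24.4 and 22.3 CPM across IRI replicates 1 to 3 and 51.1, 36.1 and 30.7 CPM across congested replicates 1 to 3. Junb held 59.6, 19.04 and 18.01 CPM and 64.2, 34.9 and 23.9 CPM in the same order. The profile itself was 0.88 in IRI replicate 1 and 0.88 in congested replicate 1, -0.70 and -0.91 for the other IRI libraries, and 0.04 and -0.19 for the other congested ones, as a mean of z-scores.

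Other immediate early genes were not called between the groups either. The 6 tested AP-1 genes encode transcription factors and were Fos, Fosl2, Jun, Junb, Jund and Atf3. Of these, 5 lay above 0 with a median log2 fold change of 0.52, and 0 were called by edgeR. Fos held 5.65, 2.39 and 1.06 CPM across IRI replicates 1 to 3 and 7.81, 5.86 and 5.65 CPM across congested replicates 1 to 3, so its groups did not overlap, though IRI replicate 1 and congested replicate 3 were equal to 3 digits. Such separation held for 3.42% of all genes with congested kidney higher. Its log2 ratio was 1.08 ± 0.56 (SE) (edgeR adjusted p = 0.933), and that of Fosl2 was 0.69 ± 0.51 (SE). Fos was 1.90 leaving out IRI library 1 and 0.68 leaving out IRI library 3. Fosl2 was 1.29 leaving out IRI library 1, 0.43 leaving out IRI library 2 and 0.11 leaving out congested library 1. Of 23 other tested immediate early genes, 16 lay above 0 with a median of 0.02. Gadd45g and Ppp1r15a, both stress-induced, had the smallest p of that list and negative values of -0.49 and -0.41, which were -0.11 and -0.08 leaving out IRI library 1. Gadd45g was -0.14 when adjusted for length and GC, and Ppp1r15a -0.24 leaving out congested library 2. Between the replicate numbers, 10 of these 23 genes and 3 of the 6 AP-1 genes were called by edgeR, against 8.01% of all genes.

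Of 22 tested relatives of the 10 genes, 1 had groups apart with congested kidney higher and 1 with it lower, against 3.42% and 3.07% of all genes, so neither share stands far from the background. Klf2, a flow-responsive endothelial factor, held 16.1, 11.7 and 10.5 CPM across IRI replicates 1 to 3. It held 7.54, 7.83 and 8.24 CPM across congested replicates 1 to 3, all below IRI. Its log2 ratio was -0.70 ± 0.25 (SE) (edgeR adjusted p = 0.933). Klf7 stood higher in every congested library, at 12.2, 13.03 and 11.6 CPM against 7.72, 5.21 and 9.18 CPM, with a log2 ratio of 0.74 ± 0.27 (SE) (edgeR adjusted p = 0.933), and 0.45 when adjusted for length and GC. Of 22 tested relatives 15 lay above 0, with a median of 0.19 and 0 called.

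Endothelial markers are given beside Klf2 and Klf4, which endothelial cells express. Of the 8 markers 4 lay above and 4 below 0, with a median of 0.07 and 0 called by edgeR. Their summed level was 317.1 to 424.1 CPM in IRI and 355.0 to 414.2 CPM in congested kidney, and 0 of the 8 were at 0 in any library. Cdh5 and Eng had the smallest p, with log2 fold changes of 0.80 and 0.54. Groups were apart with congested kidney higher for 3 of the 8 (Pecam1, Cdh5 and Eng) and with it lower for 0. The shares of all genes were 3.42% and 3.07%. Tek, Emcn, Egfl7 and Plvap were the 4 below 0, at -0.30, -0.23, -0.26 and -0.38, and Klf2 was below 0 as well. Of the 8 pericyte and smooth muscle markers all lay above 0 with a median of 0.32 and 0 called, Notch3 and Acta2 at 0.89 and 1.17, with Notch3 at 0.58 when adjusted for length and GC. Their summed level was 114.4 to 170.0 CPM in IRI and 219.7 to 239.1 CPM in congested kidney. These sums include Acta2, at 58.9, 57.5 and 22.6 CPM across IRI replicates 1 to 3. Across congested replicates 1 to 3 Acta2 held 140, 78.0 and 94.4 CPM. Groups were apart with congested kidney higher for 2 of the 8 markers, Notch3 and Acta2, against 3.42% of all genes.

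No mRNA of the upstream pathway was called. Of 18 genes of SRF, its ternary complex partners and the MAP kinases, 15 lay above 0 with a median of 0.17. Among these 18, edgeR called 0 between the groups and 0 between the replicate numbers, against 0% and 8.01% of all genes. Srf held 21.2 to 26.7 CPM in IRI and 25.2 to 26.8 CPM in congested kidney. Mrtfb, an actin-regulated SRF coactivator, had a log2 ratio of 0.57 ± 0.26 (SE) and the kinase gene Rps6ka3 one of 0.45 ± 0.30 (SE). Under the replicate block, adjusted for length and GC, these were 0.30 and 0.13, and Rps6ka3 was 0.26 leaving out IRI library 2 and 0.79 leaving out IRI library 3. Of 9 corepressors and ERK feedback genes 7 lay above 0 with a median of 0.17 and 0 called. Spred2 and Spred1, inhibitors of RAS to RAF signalling, had values of 0.73 ± 0.30 (SE) and 0.49 ± 0.32 (SE). Spred1 was 0.20 when adjusted for length and GC and 0.18 with the block as well. It was 0.25 leaving out congested library 1, 0.30 leaving out IRI library 2 and 0.74 leaving out congested library 3.

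Of 10 genes known as EGR1 targets, 8 lay above 0 with a median of 0.38, and edgeR called 0 between the groups and 4 between the replicate numbers, against 8.01% of all genes for the numbers. Thbs1, which encodes thrombospondin 1, held 75.2, 56.1 and 72.7 CPM across IRI replicates 1 to 3. It held 140.7, 92.9 and 110.6 CPM across congested replicates 1 to 3, all above IRI (log2 ratio 0.75 ± 0.24 SE, edgeR adjusted p = 0.933). Icam1, a leukocyte adhesion molecule, had a log2 ratio of 0.55 ± 0.31 (SE), and 0.34 leaving out congested library 1. Of mRNAs known to be decayed by ZFP36, 4 of 10 passed the filter, so no count is read from them. Il1b held 2.62, 0.768 and 0.353 CPM across IRI replicates 1 to 3 and 7.81, 2.12 and 0.863 CPM across congested replicates 1 to 3, while Ccl2 held 4.69, 1.20 and 0.441 CPM and 13.3, 3.37 and 0.863 CPM. Cxcl1 and Cxcl2 also passed, with log2 ratios of -0.06 ± 0.76 (SE) and 1.24 ± 0.97 (SE).

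Of the 12 myeloid markers 11 were highest in congested replicate 1, and Csf1r was highest in IRI replicate 3. All 12 lay above 0 with a median of 1.504, and edgeR called 0 between the groups and 7 between the numbers, against 8.01% of all genes for the numbers. Their summed level was 62.8 to 145.7 CPM in IRI and 88.3 to 492.2 CPM in congested kidney, with 145.7 and 492.2 CPM in replicate 1 of each, and 0 of the 12 were at 0 in any library. Msr1 and Fcgr1 had the smallest p, with log2 fold changes of 2.44 and 1.63, which were 0.52 and 0.52 leaving out congested library 1. The summed level of the 10 immediate early genes ran from 146.9 to 302.3 CPM in IRI and from 185.7 to 365.8 CPM in congested kidney, again highest in replicate 1 of each group. Klf6 alone held 103.3 and 196.6 CPM of the sums in replicate 1 of IRI and congested kidney. Of the 9 tested genes, 5 were higher in congested than in IRI replicate 1, Klf6 among them, and Egr1, Ier2, Ier3 and Zfp36 were lower. The part of myeloid cells in the levels of the 10 genes was not tested. The tubular injury genes, of which 2 of 8 lay above 0 with a median of -0.09, were not called between the groups. Among them Spp1 and Krt18 had log2 fold changes of 0.51 and -0.28, whose sign depended on single libraries, with ranges of -0.70 to 1.62 and -0.69 to 0.37. Between the replicate numbers 7 of the 8 were called, against 8.01% of all genes. The proximal tubule markers had a median of 0.01 with 5 of 9 above 0, and 7 of the 9 were called between the numbers, against the same 8.01%. Slc5a2 and Hnf4a had log2 ratios of 0.30 and 0.21, which were 0.05 and 0.06 leaving out IRI library 1. Single libraries moved them in the other direction too, to 0.56 for Slc5a2 (leaving out congested library 1) and to 0.46 for Hnf4a (leaving out IRI library 3).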

How the data were processed

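Polyadenylated RNA of kidney cortex was sequenced from a stranded library preparation, per the labels' protocols. The deposited table holds raw whole-number counts for each gene and library. Per the submitters' processing notes the tools were STAR 2.7.10a, featureCounts and Subread, with the build GRCm38. How strand and multimapping were handled is not given in the sources used here. Overlapping or antisense genes may therefore share reads.

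The group test was run in edgeR 4.0.16 (R 4.3.3): filterByExpr (minimum count 10, minimum total 15), which left 14274 of 26971 features, TMM factors, robust quasi-likelihood F tests with group as the term, and Benjamini-Hochberg adjustment over all tested genes. Calls used an adjusted p under 0.05. Log2 CPM used a prior count of 2. A second fit held group and replicate number. Alternatives used DESeq2 1.42.0, limma 3.58.1 (voom) and mgcv 1.9.3 (length and GC trends, basis 6, with features for 96.8% of tested genes). Fits were tested on simulated data. Genes named were the 10 members, the 2 with the smallest p in each other list, and the 8 nearest in profile. Others, such as Srf, were named after their values were seen. Members and lists were chosen with earlier results of these data known.

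Replicate numbers 1 to 3 occur in each group, and no label states what they share. Same-numbered libraries deviated together from their group means (correlations 0.724, 0.342 and 0.429, all over 0.1), and were treated as pairs for that reason. Number 1 alone was set apart: IRI 2 correlated at 0.401 with congested 3, above its value with congested 2, and IRI 3 at 0.249 with congested 2. Counts of replicates differed beyond Poisson error. Transcripts came from GENCODE on GRCm38 and promoters from RefSeq on GRCm38.p6.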

Additional observations from a re-analysis of the deposited data

How the results depend on the processing

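Of the 9 tested genes, Egr1, Klf4, Klf6, Ier3, Nr4a1 and Dusp1 kept the sign of their difference in all 23 alternatives, and none of the 9 was called except Klf4, Klf6 and Ier3 in the fit with the replicate block and without replicate 3 of both groups. Zfp36 turned positive with total counts (0.13), no filter (0.0046), limma-voom (0.0508), the length and GC trend removed (0.07) and thinned counts (0.0428). With the replicate block Zfp36 was 0.0514 in edgeR, 0.0421 in DESeq2, 0.0452 in limma-voom and 0.12 with the trend removed. Krt18 was 0.0825 with the trend removed and 0.19 with the replicate block and the trend removed. Leaving libraries out gave ranges of -0.19 to 0.32 for Zfp36, -0.31 to 0.77 for Ier2, -0.15 to 0.87 for Egr2, -0.69 to 0.37 for Krt18, -0.0112 to 2.82 for Ccl2 and -0.70 to 1.62 for Spp1. The median of the members ranged from 0.031 to 0.77, the members called from 0 to 3 and the genes called from 0 to 5457, the highest with the replicate block and without replicate 3 of both groups. With the block and without replicate 1 of both groups, 12 genes were called, the median of the members was 0.56, Zfp36 was 0.30 and Krt18 0.33, and without replicate 3 of both groups Ier2 was -0.11. Those fits keep 1 residual degree of freedom. DESeq2 with the replicate block called 8 genes, 0 of them members. With all 6 libraries, the replicate block called 0 genes in edgeR and limma-voom, as without it. Between replicate numbers, members called were 0 with total counts, 1 with limma-voom and 4 with DESeq2, which called 1863 genes against 1144. Leaving out 1 library, chosen after seeing the data, gave 0 to 7 members and 854 to 7841 genes. The cause of these shifts was not tested. Total counts moved the median of all genes to 0.10. Counts of Egr3 were too few to show a difference at this depth.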
